A study of Mus musculus with 15 samples.

Results

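Chromatin isolation by RNA purification followed by sequencing (ChIRP-seq) captures a chosen RNA with biotinylated antisense oligos and sequences the DNA that comes down with it. The peaks described here came from brain of adult *Snord116del* mice, in which the *Snord116* cluster and with it the spliced long non-coding RNA *116HG* are deleted on the paternal chromosome, so the *116HG* oligos were applied to tissue that does not make their RNA. A second library from the same genotype was made with non-specific control (NSC) oligos. The members were all peaks of the 2 *Snord116del* lists, 1280 with the *116HG* oligos and 3418 with the NSC oligos, or 4698 of the 97524 peaks in the 5 ChIRP-seq lists of the series.

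The mice carried the B6(Cg)-Snord116tm1.1Uta/J deletion, labelled +/-, and the comparison lists came from adult wild-type (WT) C57BL/6J brain: 1 with NSC oligos (3648 peaks) and 2 with *116HG* oligos (78033 and 11145 peaks). According to the study's methods each ChIRP used a hemisphere of a brain, with all of its cell types, and the undeleted maternal chromosome still carried *Snord116* DNA. The only input library among the samples came from WT brain, so the folds of *Snord116del* peaks are ratios to input of the other genotype. There was 1 library of each oligo set in *Snord116del* brain. No test between them was therefore possible, and every interval below is an exact Clopper-Pearson 95% interval that covers counting error only. The study's methods give more aligned reads for the NSC than for the *116HG* library of *Snord116del* brain, and a higher aligned share for both than for the WT libraries.

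*116HG* is the processed host transcript of the *Snord116* small nucleolar RNAs, made in neurons from the paternal chromosome, and its loss is part of the minimal region of Prader-Willi syndrome. In ChIRP, DNA can come down with the RNA, with a sequence that resembles the oligos, or with the beads, and a sample without the RNA is a usual control for the latter routes. Much of what follows concerns L1 (LINE-1) elements, the retrotransposons that make up a large part of the mouse genome. A full-length mouse L1 begins with a tandem array of GC-rich monomers that acts as its promoter, followed by a pair of open reading frames, of which the second, encoding the endonuclease and reverse transcriptase, is very long. The other recurring sequence is the 5S ribosomal RNA gene, which RNA polymerase III transcribes from a tandem cluster.

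The sequences that recurred are shown first, because most *116HG* peaks of *Snord116del* brain held one of them. Each line is the middle 200 bases of a peak, read from the mouse genome of the mm9 build and turned so that the family's shared 20-base run, in capitals, reads in 1 direction. The first sequence belongs to the *116HG* peak of family 1 with the largest fold over input, the second to an NSC peak of family 1 with the largest fold (63.06, shared with a peak on the X), each overlapped by the other list, and the third to the strongest *116HG* peak of family 1 that holds the run and has no NSC peak within 10 kb.
116HG chrX:41033232-41033431 (- strand): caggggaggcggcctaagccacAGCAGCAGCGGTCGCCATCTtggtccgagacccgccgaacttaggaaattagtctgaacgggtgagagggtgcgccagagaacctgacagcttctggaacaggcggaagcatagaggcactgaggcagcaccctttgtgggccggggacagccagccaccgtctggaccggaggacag
NSC chr10:66045438-66045637 (+ strand): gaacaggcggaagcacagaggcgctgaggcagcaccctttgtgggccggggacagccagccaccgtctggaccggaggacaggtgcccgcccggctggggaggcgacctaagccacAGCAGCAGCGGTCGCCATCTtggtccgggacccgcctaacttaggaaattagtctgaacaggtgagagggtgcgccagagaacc
116HG chr3:79438457-79438656 (+ strand): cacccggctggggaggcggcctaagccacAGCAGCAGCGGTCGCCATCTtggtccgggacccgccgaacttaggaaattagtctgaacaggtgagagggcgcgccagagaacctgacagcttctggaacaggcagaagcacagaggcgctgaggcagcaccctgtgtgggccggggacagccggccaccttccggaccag

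The fourth sequence is the *116HG* peak of largest fold in family 2 that holds the shared run of that family, which an NSC peak overlapped.
116HG chr7:92908800-92908999 (- strand): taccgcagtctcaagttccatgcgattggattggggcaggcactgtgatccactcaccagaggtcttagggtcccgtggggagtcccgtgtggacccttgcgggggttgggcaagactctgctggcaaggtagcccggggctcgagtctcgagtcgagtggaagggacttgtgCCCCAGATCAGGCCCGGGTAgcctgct

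Families were built by aligning the middle 200 bases of all *Snord116del* peaks with each other and linking those that aligned over at least 100 bases at 80% identity. Family 1 held 749 of the 1271 *116HG* peaks that lay on the reference chromosomes (58.9%, interval 56.2 to 61.7) and 1428 of 3395 NSC peaks (42.1%, 40.4 to 43.7). Its members were GC-rich, with a median GC content of 64.5% in both lists, and the middle 32 bases of 92.3% of the *116HG* and 93.2% of the NSC members occurred more than once in the genome. Reads from such sequence can match many places, so the position given to a single member is uncertain.

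Members of family 1 for which it could be read had the layout of the L1 promoter array. Where a tandem array was found around the peak (at least 70% of bases equal after a shift), which was the case for 154 *116HG* (20.6%) and 315 NSC (22.1%) members, the repeat length had a median of 212 bases in both lists. Among the 343 of 749 *116HG* members with the shared 20-base run on 1 strand, 273 (79.6%) were followed within 10 kb, in the direction of that run, by an open stretch of at least 1000 codons, with a median of 1300 codons. For the NSC list, where 623 of 1428 members had the run, it was 489 (78.5%), again with a median of 1300 codons. On the opposite strand downstream, 0 of 343 and 1 of 623 had such a stretch, and in any direction it was found beside 11 of 313 *116HG* peaks (3.51%) and 57 of 1596 NSC peaks (3.57%) that belonged to no family. No repeat annotation was used here, and the name L1 for family 1 rests on this layout of GC-rich tandem units before a very long reading frame. The layout was read in a part of the members only. Direct alignment to the family's representative was found for 540 of the 749 *116HG* and 1029 of the 1428 NSC members. The rest were linked through other members.

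Family 2 was a second array of the same kind. It held 64 *116HG* peaks (5.04%, 3.90 to 6.38) and 103 NSC peaks (3.03%, 2.48 to 3.67), and its repeat length was 208 bases. The long reading frame lay on the side that the shared run of family 2 points away from, in 29 of 45 *116HG* members (64.4%) and 43 of 72 NSC members (59.7%). There were 3 smaller families, 1 interspersed (family 3, 20 and 33 peaks) and 2 from 5S genes or the cluster around them (families 4 and 5). The middle base lay in an annotated exon for 6 of 15 *116HG* and 9 of 20 NSC peaks of family 4. For family 5, whose peaks all lay at the 5S cluster, it was 0 of 15 and 0 of 18. All 5 families together took up 863 *116HG* peaks (67.9%, 65.3 to 70.5) and 1602 NSC peaks (47.2%, 45.5 to 48.9).

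Only some genomic copies were listed. The representative of family 1 matched 4229 places in the genome after hits within 1 kb were joined, of which 558 (13.2%) had a *116HG* peak within 1 kb, 1022 (24.2%) an NSC peak, and 390 both. The 20-base run of family 1 was found in the middle 200 bases of 27.1% of the *116HG* peaks and 18.4% of the NSC peaks, against 0.0524% of all 200-base windows of the genome, counting both strands. The run was taken from the family's own peaks, so a higher share in these lists was built in.

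Families 1 and 2 were scarce in the WT lists. Family 2 held 0.266% of the WT NSC peaks, 0 peaks of the first WT *116HG* library and 0.0750% of the second. Family 3 differed less. It held 0.710% of the WT NSC peaks, 0 peaks of the first WT *116HG* library and 0.366% of the second. The *Snord116del* shares of family 3 were 1.57% with *116HG* and 0.972% with NSC oligos. Family 1 held 0.681% of the WT NSC peaks (interval 0.432 to 1.02), 1 of 77619 peaks of the first WT *116HG* library and 0.488% of the second (0.364 to 0.639). The base composition differed in the same way. The middle 200 bases had a median GC content of 64% in the *Snord116del* *116HG* list and 63.5% in the *Snord116del* NSC list, against 40%, 47.5% and 39% in the WT NSC and the 2 WT *116HG* lists and 41.5% over all windows of the genome. The families were built from *Snord116del* peaks alone, and WT peaks were then assigned to them by alignment. The family shares therefore favour the *Snord116del* lists by construction and cannot show how alike the libraries are. The median GC content was computed without the family assignment. In both *Snord116del* lists it was 64.5% for peaks in the 5 families and 61% for those outside them. By median GC content the *Snord116del* libraries lay closer to each other than to a WT library made with the same oligos. With 1 or 2 libraries per group the genotype cannot be told apart from the preparation and sequencing of the libraries.

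**Figure D1:**
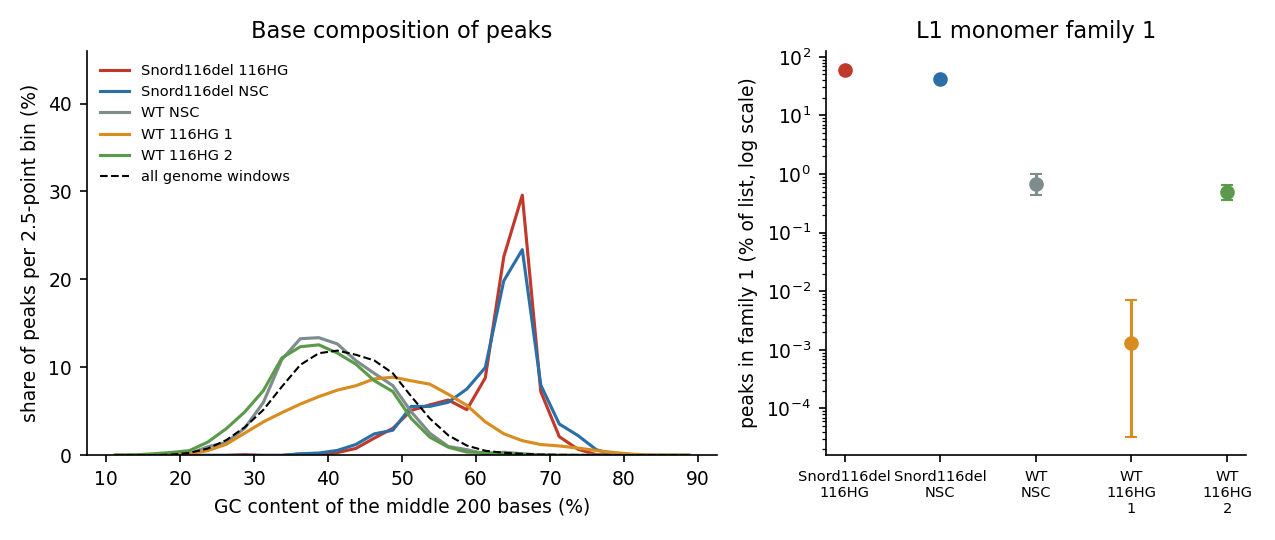
Left, share of peaks (%) in bins of 2.5 points of the GC content of the middle 200 bases (%), for the 5 peak lists and for all 200-base windows of the genome (dashed). Right, share of each list in L1 monomer family 1 (%, log scale) with exact 95% intervals. The family was built from the *Snord116del* peaks, and WT peaks were assigned to it by alignment. Both *Snord116del* lists peaked near 65% GC and held 58.9% and 42.1% of their peaks in family 1, while every WT list held under 1% there.

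The next comparison asked how far the 2 oligo sets came down with the same places when their RNA was absent. Of the 1280 *116HG* peaks, 659 (51.5%, 48.7 to 54.3) overlapped an NSC peak and 793 (62.0%, 59.2 to 64.6) had one within 10 kb, while 2.30% of the main chromosomes lay within 10 kb of an NSC peak. Read from the other side, 895 of the 3418 NSC peaks (26.2%, 24.7 to 27.7) had a *116HG* peak within 10 kb, and 0.894% of the genome did. The same *116HG* peaks had a WT NSC peak within 10 kb in 5.70% of cases (4.50 to 7.12, with 1.57% of the genome so placed), and a peak of the WT *116HG* libraries in 33.0% and 16.4% (with 22.6% and 6.99% of the genome so placed).

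Sharing rose with the fold over input, the enrichment that the authors' peak caller gave each peak. Among *116HG* peaks under a fold of 22, 46.9% (42.4 to 51.4, n = 499) had an NSC peak within 10 kb, and the share was 62.5% (n = 526) from 22 to 26, 90.05% (n = 221) from 26 to 40 and 91.2% (76.3 to 98.1, n = 34) from 40 up. The NSC peaks ran from 14.2% (n = 1461) through 22.4% (n = 1168) and 49.6% (n = 696) to 87.1% (78.5 to 93.2, n = 93) over the same classes. From a fold of 40 up, 31 of the 34 *116HG* peaks and 81 of the 93 NSC peaks thus had a peak of the other list close by. The family 1 share changed over the same classes. It was 48.3%, 62.2%, 72.9% and 58.8% of the *116HG* peaks and 27.9%, 43.0%, 65.5% and 67.7% of the NSC peaks. Its part in the rise was not tested.

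**Figure D2:**
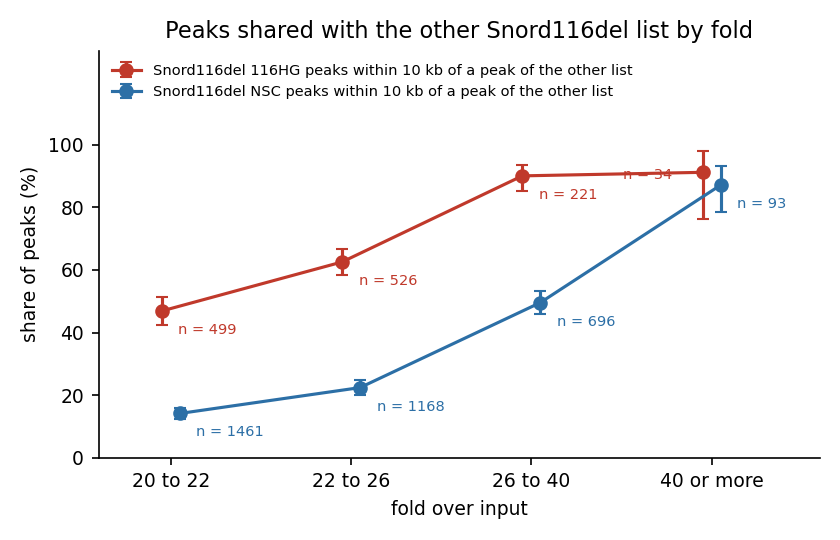
Share of peaks (%) of each *Snord116del* list that lay within 10 kb of a peak of the other, by class of fold over input, with exact 95% intervals and the number of peaks in each class. The *116HG* share rose from 46.9% to 91.2% and the NSC share from 14.2% to 87.1%.

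The folds were not continuous, which bears on every comparison of them. In each library most folds were whole multiples of 1 value, 1.6005 in the *116HG* list (80.5% of peaks within 0.02 of a multiple) and 1.752 in the NSC list (83.0%). The smallest fold in either list was 20.01. In the *116HG* list the lowest multiple that passed was the 13th, at a fold of 20.8 with 395 peaks (30.9% of the list), and in the NSC list it was the 12th, at 21.0 with 1238 peaks (36.2%). Counting only NSC peaks from the 13th multiple up left 1882 peaks, and 50.7% of the *116HG* peaks (47.9 to 53.5) then had an NSC peak within 10 kb.

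**Figure D3:**
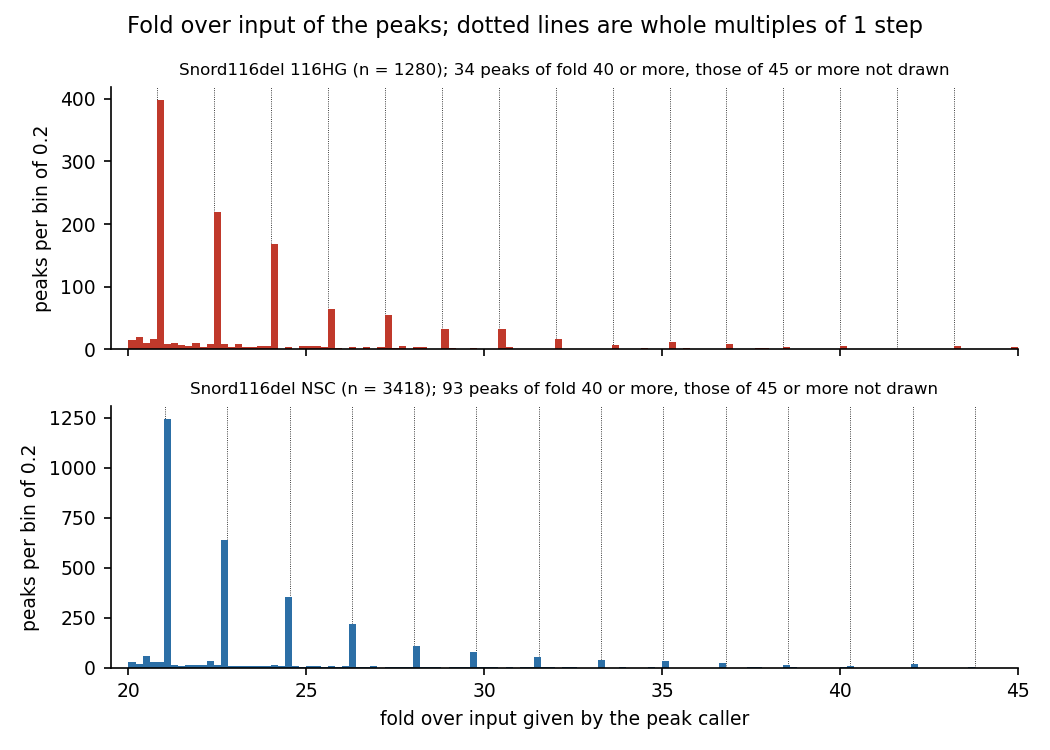
Number of peaks per bin of 0.2 in fold over input for the *Snord116del* *116HG* list (top) and NSC list (bottom), up to a fold of 45; dotted lines mark whole multiples of 1.6005 and 1.752. The lowest filled multiple held 395 and 1238 peaks.

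By sequence class, 528 of the 749 *116HG* peaks of family 1 (70.5%, 67.1 to 73.7) had an NSC peak within 10 kb, as did 40 of 64 of family 2 (62.5%), 8 of 20 of family 3, 30 of 30 of families 4 and 5, and 187 of 417 peaks outside the 5 families (44.8%). Most peaks of families 4 and 5 lay in the 5S cluster, whose 83.3 kb held 38 NSC peaks, so a neighbour within 10 kb was nearly given there. By direct overlap the shares were 63.4% in family 1, 57.8% in family 2, 35% in family 3, 53.3% in families 4 and 5 and 29.7% outside. Over the 659 overlapping *116HG* peaks, each set beside the overlapping NSC peak (the one of largest fold at the 17 places with several), the median fold was 24.0 with *116HG* and 26.3 with NSC oligos, and the median ratio was 0.914 (quartiles 0.792 to 1.02). The ratio of the units themselves, 1.6005 to 1.752, was also 0.914, so a pair at the same multiple has this ratio. Of the 494 pairs with both folds on a multiple, the *116HG* peak had the higher multiple in 217, the NSC peak in 215 and neither in 62, and the median was the 15th multiple in both lists. The lists started at the 13th multiple with *116HG* and the 12th with NSC oligos. A pair with its NSC peak at the 12th was thus counted as higher with *116HG* by construction. The near-even split therefore cannot show which oligo set gave the higher multiple. By raw fold the *116HG* value was the higher in 175 of the 659 and the NSC value in 484, a split that moves with the units. Because both values had to pass a threshold, these pairs do not include places that 1 list lost at the threshold.

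**Figure D4:**
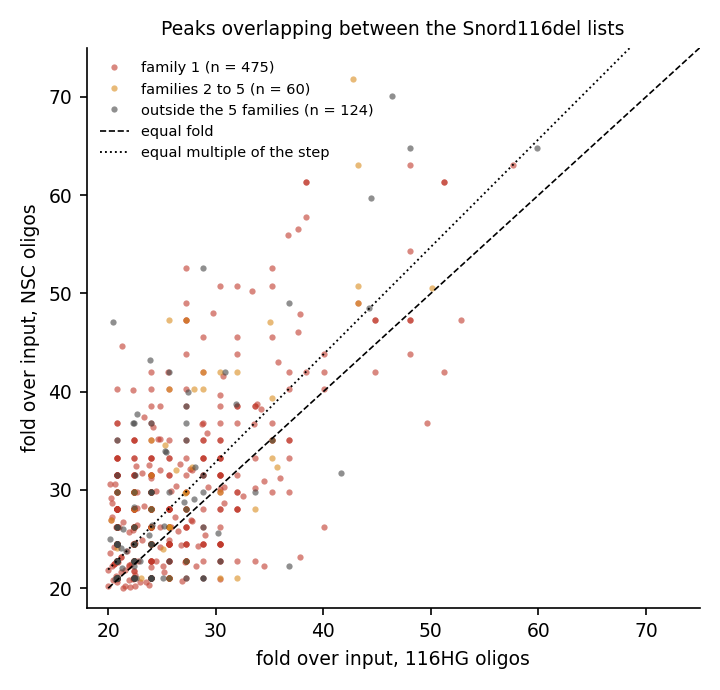
Fold over input with the NSC oligos against that with the *116HG* oligos at the 659 *116HG* peaks that an NSC peak overlapped, in *Snord116del* brain. Points are peaks coloured by sequence family, the dashed line marks equal fold and the dotted line the same multiple in both libraries. By raw fold 484 points lie above the dashed line, whereas on the multiples 217 pairs were higher with 116HG and 215 with NSC. The lists started at the 13th (116HG) and 12th (NSC) multiple, which partly sets the second split.

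The 9 *116HG* peaks of largest fold had folds from 49.6 to 59.9, followed by 6 tied at 48.0. An NSC peak overlapped 8 of the 9 and all 6 tied peaks, and 6 and 5 of these belonged to family 1, including chrX:41033193-41033471 (fold 57.6) and chr17:19240748-19241007 (52.8). The exception without an NSC peak within 10 kb was chr7:10870351-10870544 (fold 52.8), which held a 32-base run that occurred 26323 times in the genome. The 8 NSC peaks of largest fold ran from 63.1 to 71.8, followed by 4 tied at 61.3, and a *116HG* peak overlapped 7 of the 8 and all 4. The unmatched one was chr8:3754342-3754582 (fold 68.5), outside genes and 5.48 kb from the nearest start site.

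The composition of the lists differed when all peaks were counted. In the *116HG* list 12.4% of peaks lay in exons (10.7 to 14.4), 42.1% inside genes (39.4 to 44.9) and 22.6% within 5 kb of a start site (20.3 to 24.98). In the NSC list these shares were 22.3% (20.9 to 23.8), 53.8% (52.1 to 55.5) and 38.5% (36.9 to 40.2). Exons made up 3.40% of the genome, genes 41.2% and the surroundings of start sites 16.5%. When the NSC list was cut to its 1280 peaks of largest fold, the shares were 10.7% in exons (9.05 to 12.5), 39.3% inside genes (36.6 to 42.0), 21.95% near start sites (19.7 to 24.3) and 61.2% in family 1 (58.5 to 63.9), and all 4 intervals overlapped those of the *116HG* list. That cut fell within a tie at a fold of 22.77, where 20 of the 622 NSC peaks with this fold were kept. Cutting both lists at the same multiple of their units also brought them closer. From the 13th multiple up, family 1 held 58.6% of the *116HG* peaks (55.7 to 61.4) and 52.4% of the NSC peaks (50.1 to 54.6), and exons 12.5% (10.7 to 14.5) and 15.8% (14.2 to 17.6), and the intervals of family 1 did not overlap. From the 15th up all intervals overlapped, and the shares were 68.2% (63.996 to 72.3, n = 507) and 66.8% (63.3 to 70.1, n = 768) in family 1 and 6.71% (4.69 to 9.25) and 7.03% (5.33 to 9.07) in exons. A common raw fold of 22.8 or more, which is the 13th NSC multiple but above the 14th *116HG* multiple, gave 68.4% and 52.4% in family 1 and 6.55% and 15.8% in exons.

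**Figure D5:**
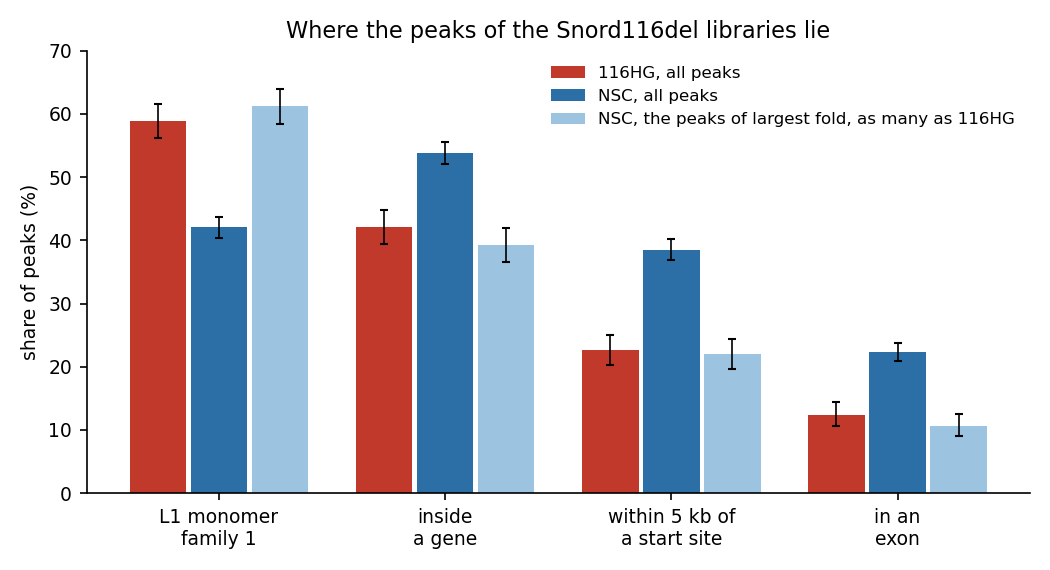
Share of peaks (%) in L1 monomer family 1, inside a gene, within 5 kb of a start site and in an exon, for all 116HG peaks, all NSC peaks and as many NSC peaks of largest fold as there were 116HG peaks, in *Snord116del* brain; error bars are exact 95% intervals. The full NSC list differed from the 116HG list in each class, and the shortened one lay within 3 points of it.

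Outside the 5 families, 408 *116HG* and 1793 NSC peaks on the reference chromosomes remained. Within 1 kb of a start site lay 37.0% of these *116HG* peaks and 47.1% of these NSC peaks, and 27.7% and 22.1% lay outside genes. As a group the peaks outside the families were CpG-rich. Their median GC content was 61% in both lists, with a median of 8 and 9 CpG dinucleotides in 200 bases against 1 over the genome. Within 5 kb of a start site lay 55.1% of the *116HG* peaks (50.2 to 60.04) and 67.1% of the NSC peaks (64.9 to 69.3), and in exons 37.3% (32.5 to 42.1) and 41.7% (39.4 to 44.0). The exon shares of the lists thus lay closer together here than over all peaks, with overlapping intervals, while those near start sites did not overlap. The middle 32 bases occurred more than once in the genome in 29.7% and 19.4% of these peaks, against 71.9% and 54.2% of all peaks.

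The next lines show 2 peaks outside the 5 families whose middle 32 bases occurred once in the assembled genome. The first is the *116HG* peak in an intron of Atf2, which encodes a CREB-family transcription factor. The second is the strongest NSC peak at Eef2, in an exon of this gene for the ribosomal translocase elongation factor 2. Copies in sequence missing from the assembly would not be counted, and whether the rest of each stretch occurs elsewhere was not tested. Neither peak can therefore be called a single-copy site. The Atf2 peak and the NSC peak over it belonged to a family of fewer than 20 peaks. Capitals mark CpG dinucleotides.
Atf2 chr2:73705888-73706087 (+ strand): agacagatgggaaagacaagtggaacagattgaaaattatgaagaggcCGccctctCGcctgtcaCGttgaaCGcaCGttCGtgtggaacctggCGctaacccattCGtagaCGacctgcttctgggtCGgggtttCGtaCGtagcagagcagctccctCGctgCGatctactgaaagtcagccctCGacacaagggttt
Eef2 chr10:80641783-80641982 (+ strand): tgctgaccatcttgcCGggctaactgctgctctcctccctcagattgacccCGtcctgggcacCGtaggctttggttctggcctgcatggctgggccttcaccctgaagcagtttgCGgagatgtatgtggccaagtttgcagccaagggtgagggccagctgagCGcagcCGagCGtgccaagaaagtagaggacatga
At Atf2 the fold was 46.4 with the *116HG* oligos and 70.1 with the NSC oligos. Eef2 had 4 NSC peaks, of fold 25.5, 28.03, 31.5 and 35.03, and no *116HG* peak within 2 kb.

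The 5S gene cluster on chromosome 8 held the region with the most peaks in both lists. Over chr8:126062686-126145946, an 83.3 kb stretch with 41 annotated 5S genes, lay 27 *116HG* peaks (2.11% of the list, 1.39 to 3.05) and 38 NSC peaks (1.11%, 0.788 to 1.52), with maximum folds of 45.4 and 50.8 and median folds of 24.0 and 26.3. The densities were 324 and 456 peaks per Mb, against 0.481 and 1.29 per Mb over the main chromosomes. The WT NSC list had 4 peaks there, the first WT *116HG* list 0 and the second 6. A 5S gene elsewhere, n-R5s194 on chromosome 3, had a peak in both lists, of fold 43.2 with *116HG* and 63.1 with NSC oligos.

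Chromosome by chromosome, family 1 was densest on the X in both lists, with 0.462 *116HG* and 0.894 NSC peaks per Mb. On the autosomes the *116HG* density ran from 0.163 on chromosome 19 to 0.375 on chromosome 14, and the NSC density from 0.294 to 0.727. Of all *116HG* peaks, 85 (6.64%) lay on the X, which makes up 6.31% of the main chromosomes, and 77 of these 85 belonged to family 1.

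At the locus that the *116HG* oligos were designed against, the *Snord116del* lists had 1 peak in all. None of the 1280 *116HG* and none of the 3418 NSC peaks lay in the 139 kb that hold the 27 annotated *Snord116* copies, for which the exact upper limits are 0.288% and 0.108%. Over the main chromosomes the lists had 0.481 and 1.29 peaks per Mb. At these densities a stretch of 139 kb would usually hold no peak, so the absence says little about this stretch. The WT lists had 30 and 61 peaks there with the *116HG* oligos and 8 with the NSC oligos. From Ube3a to Snrpn, chr7:66484122-67285105, the only *Snord116del* peak was 1 of the *116HG* list, of fold 22.4, inside the *Snord115* array and 570 bases from the nearest annotated copy; the nearest NSC peak was 658 kb away. Both WT *116HG* lists had a peak within 10 kb of this *Snord116del* *116HG* peak, though none overlapped it. In the *Snord115* array the WT *116HG* lists had 239 and 218 peaks and the WT NSC list 0. The *Snord116del* peak was itself a member of family 1. Its middle 200 bases are shown with the longest run (15 bases) that it shares with the L1 array around the family's representative in capitals, and its middle 32 bases occurred 9 times in the genome.
116HG chr7:66649614-66649813 (+ strand): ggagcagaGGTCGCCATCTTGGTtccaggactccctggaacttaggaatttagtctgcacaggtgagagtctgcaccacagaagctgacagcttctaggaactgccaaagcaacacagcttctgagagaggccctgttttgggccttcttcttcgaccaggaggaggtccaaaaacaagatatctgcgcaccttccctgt

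Within 2 kb of a *116HG* peak lay 637 of 37310 annotated genes (1.71%), and within 2 kb of an NSC peak 2095 (5.62%). The 360 genes with both made up 56.5% of the first set and 17.2% of the second. When the NSC list was cut to its 1280 strongest peaks, it gave 614 genes. The share of genes with a peak grew with gene length. Of protein-coding genes under 5 kb, 1.09% had a *116HG* peak and 4.58% an NSC peak, and of those of 150 kb or more, 11.9% and 23.4%.

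Gm20388, a predicted gene model of 4435 kb that spans the 5S cluster, had 35 *116HG* and 64 NSC peaks. Gm2420, a pseudogene in a stretch that also overlaps Pisd, had 5 *116HG* peaks of fold 20.1 to 31.9 and 4 NSC peaks of fold 21.0 to 38.7, none of them in the 5 families. Gpc5, which encodes a heparan sulfate proteoglycan of the glypican family, had 3 and 4, Prkg1, a cGMP-dependent protein kinase, 3 and 3, the long non-coding Gm11867 3 and 3, and Tmem132d 3 and 2, and every peak of these 4 genes belonged to family 1 or 2. The remaining genes with the most *116HG* peaks were the 5S genes n-R5s128, n-R5s130, n-R5s133 and n-R5s134. In the NSC list the predicted gene Gm10406 had 5 peaks, the overlapping Gm17612 and Gm13279 shared the same 5, and Gm3739 (which shares 3 of its peaks with Gm10406), n-R5s100, n-R5s128, the netrin receptor gene Unc5c and Eef2 4 each.

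The genes with the largest *116HG* folds each had an NSC peak as well, higher or lower in fold. 9530036O11Rik, a long non-coding RNA gene, had a *116HG* fold of 51.2 and an NSC fold of 42.0, and Gm11818 had 48.0 and 54.3. BC057079 had 48.0 and 47.3, and Gm12648 48.0 and 64.8. Celf2, an RNA-binding regulator of splicing, had 44.8 and 42.0, 6030498E09Rik 44.8 and 47.3, and Pde1a, a calmodulin-dependent phosphodiesterase, 43.2 and 49.0. Of the peaks at these 7 genes, those at Celf2, Pde1a, Gm11818, 9530036O11Rik and 6030498E09Rik were all members of family 1 in introns.

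Of 30 synaptic adhesion and other very long neuronal genes (median length 1112 kb), 8 had a *116HG* peak (26.7%, 12.3 to 45.9) and 18 an NSC peak (60%, 40.6 to 77.3), 6 of them both, beside 11.9% and 23.4% of all protein-coding genes of 150 kb or more. All 10 *116HG* peaks at these genes belonged to the 5 families, as did 24 of the 31 NSC peaks. Nrxn3, which encodes a presynaptic adhesion molecule, had a fold of 30.4 with *116HG* and 36.8 with NSC oligos. Dmd, the dystrophin gene, had 2 peaks in each list, with maximum folds of 30.4 and 29.8, and Macrod2 had 27.2 and 49.0. Csmd1, Grid1 and Dlgap1 also had peaks of both lists, while Lrp1b and Grm7 had a *116HG* peak only, of fold 24.0 each. Among 24 ion channels and receptors of neurons, Scn1a, Gria4 and Gria3 had both, Gabrb1 a *116HG* peak of fold 24.0 and Kcnma1 an NSC peak of fold 22.7, and all of these belonged to the families.

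For the lists with a shorter median length the shares over all annotated genes were 1.71% and 5.62%. Of 22380 protein-coding genes, 504 had a *116HG* peak and 1733 an NSC peak. Among those of 20 to 50 kb, which takes in the median of 32.9 kb of the clock list, the shares were 1.82% and 7.46%. Some listed genes were far longer, such as Rora (734 kb) and Rptor (297 kb). Of 21 core clock genes, 1 had a *116HG* peak (4.76%, 0.120 to 23.8) and 5 an NSC peak (23.8%, 8.22 to 47.2). Bhlhe41, a repressor of the clock, had a peak of both lists (fold 20.8 with *116HG*, 22.8 with NSC), and Clock, Dbp, Rora and Csnk1d had NSC peaks only. At Clock the folds were 31.5 and 22.8, and the stronger of the pair was a member of family 1. Of 26 genes of the mTOR pathway, Prr5l, which encodes a partner of mTOR complex 2, had a *116HG* peak of fold 24.0, and Irs2 (3 peaks in exons, fold up to 22.8) and Rptor (fold 21.0) had NSC peaks. Rpl32 was the only one of 30 ribosomal protein genes with a *116HG* peak (fold 22.4, with 21.0 in the NSC list), and Rpl7 had an NSC peak. Of the RBBP5 and H3K4 methyltransferase genes, Setd1b had an NSC peak of fold 21.0 in an exon. In the Prader-Willi and Angelman domain, Gabrg3 had an NSC peak of family 1 (fold 26.3). Imprinted genes elsewhere had NSC peaks at Nnat and Igf2 (21.0 each), Cldn5 of the endothelial markers had 1 of fold 21.0, and Eef2 was the only snoRNA host gene with a peak. No peak of either list lay at the nuclear long non-coding RNAs or the mitochondrial genome on these lists, or at the neuronal, astrocyte, oligodendrocyte or microglial markers. Of the genes that the study named, Mtor, Crebbp, Igf2r, Ccdc12, Mertk, Arr3, Cry1, Cry2, Per1, Per2, Ube3a and Snrpn had no peak of either *Snord116del* list within 2 kb.

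The cortex samples had the markers of brain tissue, with 417 to 590 FPKM of the synaptic Snap25 and 314 to 854 of the myelin gene Mbp over the 4 groups. Genes with peaks were set beside their transcript levels in adult cortex, as the mean of the authors' group FPKM values (WT and *Snord116del*, each at 2 times of day, with no value for single mice). The 493 genes of the table with a *116HG* peak had a median of 1.64 FPKM and the 1718 with an NSC peak 1.93, against 0.773 over all 21853 genes. At least 1 FPKM was reached by 59.0% of the first (54.5 to 63.4), 62.9% of the second (60.5 to 65.2) and 46.5% of all genes. Gene length moved with this comparison, since the median length was 55.2 kb for genes with a *116HG* peak, 27.5 kb with an NSC peak and 16.1 kb over all genes. Its part in the difference was not tested. Along the range of expression the share of genes with a *116HG* peak was 0.953% under 0.1 FPKM, 2.11% from 0.1 to 1, 3.04% from 1 to 5, 2.76% from 5 to 20 and 2.37% above, and the NSC share was 2.99%, 6.69%, 10.6%, 10.5% and 10.7%.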

How the data were processed

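ChIRP-seq peaks of *Snord116del* brain (1 library with *116HG* and 1 with NSC oligos) were compared with each other, and the lists of 3 WT libraries were set beside them. According to the study's methods and the submitters' processing notes, reads were aligned to mm9 with Bowtie2 2.0.0, and MACS 1.4.2 called peaks in each library against input (the input library given here is from WT brain), with filters on the false discovery rate and on the fold. The deposited lists give each peak's position and, except in the second WT *116HG* list, its fold (a ratio to input made by the authors). They hold no read counts, so the depth behind a peak is unknown and totals per sample cannot be computed from them. Cortex RNA-seq entered as the FPKM values that the authors computed per group with Cuffdiff 2.0.2 (TopHat2 2.0.5 alignments). Its columns of the authors' fold changes, q values and significance calls were not used.

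Peaks were placed by their middle base on GENCODE vM1 and the NCBIM37 genome, which is the same assembly as mm9; peaks on unplaced sequence (9 *116HG* and 23 NSC) were left out of these shares. A gene was counted where a peak lay within 2 kb of it. The middle 200 bases of the peaks were aligned with BLASTN 2.17.0 (E value at most 1e-10). Peaks linked by alignments of at least 100 bases at 80% identity formed a family, and families of at least 20 peaks were described. Open stretches run from stop codon to stop codon. Intervals used SciPy 1.17.1. The overlap, step, period and family procedures were tested on simulated data with known answers. With 1 library a side no test was made. Members, gene lists and named genes were chosen with earlier results of these data known. Named genes were the 10 with the most *116HG* peaks, the 10 with the most NSC peaks, the 10 with the largest *116HG* folds, the 10 with the largest smaller fold of both lists, members of the gene lists with a peak, and genes named by the study. The cell type markers apply to the RNA only, since the libraries hold DNA. The *116HG* exons between the *Snord116* copies and the oligo sequences were not analysed here.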

Additional observations from a re-analysis of the deposited data

How the results depend on the processing

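Of 86 alternative values for 29 results, 26 lay within the counting interval of the main value, or within 1.5 times a count, and 60 moved further; 30 of the 86 settings were chosen after seeing the data. No paired analysis was possible because each oligo set had 1 *Snord116del* library and no test was made. Where a setting keeps fewer peaks its construction changes the count, and the cause of the other moves was not tested. In each group of values below the *116HG* list comes first.

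At or above the median fold of both lists, 542 and 1882 peaks remained, with median widths of 332 and 367 bases, 6.55% and 15.8% in exons, 35.8% and 45.3% inside genes and 68.4% and 52.4% in family 1, and 69.0037% of the *116HG* peaks lay near an NSC peak. At 15 or more multiples of each library's unit the shares were 6.71% and 7.03% in exons and 68.2% and 66.8% in family 1. Counting any base of a peak put 17.6% and 32.5% in exons and 55.6% of the NSC peaks inside genes, and protein-coding genes alone left 20.9% of NSC peaks in exons. Within 1 kb of a start site lay 14.8% and 26.3%. Outside the 5 families the shares were 37.3% and 41.7% in exons, 72.3% and 77.9% inside genes, 55.1% and 67.1% near start sites, and 44.8% of *116HG* peaks lay near an NSC peak. The middle 24 bases were repeated in 74.4% and 56.6% of peaks and the middle 50 in 64.99% and 48.01%. Over whole peaks the median GC content was 61.8% and 61.3%. Runs of short tandem repeats of at least 20 bases, in 4.17% and 3.39% of peaks, were found in 2.75% and 2.15% at 30 bases. Direct alignment to the representative put 42.5% and 30.3% in family 1.

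The 1280 NSC peaks of largest fold had 10.7% in exons, 39.3% inside genes, 21.95% near start sites, 61.2% in family 1 and 614 genes, and 44.4% of *116HG* peaks lay near them. NSC peaks at 13 or more multiples numbered 1882, with 15.8% in exons, 45.3% inside genes, 29.4% near start sites and 52.4% in family 1, and 50.7% of *116HG* peaks lay near them. The share of *116HG* peaks near an NSC peak was 51.5% by direct overlap, 57.9% within 1 kb and 67.3% within 50 kb. Within 10 kb of a *116HG* peak lay 958 genes. The median FPKM of genes with a peak was 2.44 and 2.78 in the *Snord116del* group at Zt+6 and 1.08 and 1.48 at Zt+16, and 23.9% and 27.6% of these genes reached 5 FPKM. The deposited lists do not give the depth of single peaks, so peaks near the threshold cannot be told from places just under it.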

Other observations

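The *Snord116del* NSC list, the longer of the pair, also lay near WT peaks. Of its 3418 peaks, 41.3% had a peak of the first WT *116HG* library within 10 kb (39.6 to 42.9), 14.0% one of the second (12.9 to 15.3) and 4.65% a WT NSC peak (3.97 to 5.41), with 22.6%, 6.99% and 1.57% of the genome so placed.

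Outside the 5S cluster, the region with the most NSC peaks after merging within 10 kb was chr8:57974974-57998940, with 11 peaks and a maximum fold of 33.9 over the gene models Gm1153, Gm7349, Gm7354, Gm17293 and Gm7360. The next was chr3:93083886-93096889 over Flg, the filaggrin gene with its long repeated exon, with 7 peaks and a maximum fold of 33.3. These regions were chosen after their values were seen.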
